A study of Homo sapiens with 39 samples.

Results

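The effect of olaparib at 5 µM on the transcriptome of C4-2B cells was compared between 1 and 5 days of treatment. For each gene, the interaction was the log2 fold change of olaparib over DMSO at day 5 minus the same log2 fold change at day 1. Genes were then sorted by the days at which olaparib and DMSO differed. Of the 39 RNA-seq libraries in the series, 12 define this interaction, with 3 libraries in each of the 4 groups DMSO day 1, olaparib 5 µM day 1, DMSO day 5 and olaparib 5 µM day 5. The question addressed is which responses to a PARP inhibitor (PARPi) appear at once, which appear only with prolonged exposure, and which pass or turn around.

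C4-2B is a castration-resistant prostate cancer cell line derived from LNCaP, and it is sensitive to PARPi. All 12 libraries came from this one line, grown in RPMI 1640 medium with serum, and cells were treated the day after plating. The other libraries of the time course held olaparib at 1 µM (6 libraries). A separate 5-day panel (21 libraries) held DMSO, olaparib at 1 µM, talazoparib, another PARPi, at a nanomolar dose, and other treatments. The labels do not say that replicates were separate cultures, so p-values measure the spread between libraries, which may be technical.

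As background, PARP1 and PARP2 sense DNA breaks, and inhibitors such as olaparib block their activity and trap them on DNA. Damage met during replication activates p53, which switches on genes such as CDKN1A, the cyclin-dependent kinase inhibitor p21. p21 keeps the repressor complexes of the RB family on the promoters of cell cycle genes, through E2F sites in replication genes and CHR elements in mitotic genes. In luminal prostate cells androgens drive genes such as KLK3, which encodes PSA.

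Total counts in the 12 libraries ran from 34214001 to 44893664, with a median of 37402610. Replicates of a group differed by more than sampling noise, with a chi-square per degree of freedom of 2.14 to 5.52 for each pair. The share of counts from mitochondrially encoded genes was 8.24% to 9.28% in DMSO, 10.9% to 11% in olaparib 5 µM at day 1 and 14.3% to 14.6% at day 5. The 10 luminal prostate markers were present in every library, with a summed level of 3600 to 5840 CPM (counts scaled to a common library size with TMM). Of the 6 basal markers, TP63 and KRT5 had at most 2 counts in any of the 12 libraries, KRT14 and KRT15 at most 68 and 85. At day 5 KRT14 and KRT15 were higher in olaparib (log2 fold changes 2.07 and 2.94), and ITGA6 and DST, the abundant members, were lower (-0.77 and -0.85). The summed level of the list was 102 to 113 CPM in the other groups and 61 to 65.6 in olaparib 5 µM at day 5. PTPRC and CD3E, which define immune cells, had at most 4 counts. The part of the mitochondrial share and of these markers in the results was not tested. In bulk RNA, fewer cells of a type and less RNA per cell cannot be told apart, and this holds for every level given here.

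With edgeR's quasi-likelihood test over 18502 genes, the effect of olaparib 5 µM differed between days for 10156 genes at an adjusted p under 0.05, 5035 higher at day 5 than at day 1 and 5121 lower. That is 54.9% of genes tested, so a called interaction is common in these data, and the counts of gene groups below are to be read against that share. The median of the interaction over all genes was -0.02 on the log2 scale. When libraries were scaled to total counts in place of TMM, this median was -0.15, and 33.2% of the called genes were higher at day 5 in place of 49.6%. Interactions are stated relative to the TMM scale. Small day 1 calls also depended on scaling: that of ITGA6 was lost with RLE scaling, and those of ELOVL5, FADS1, BRCA2, XRCC2, NPC1 and NFKBIA with total-count scaling. Of the called genes, 2243 had an interaction of at least 1 on the log2 scale, 845 higher and 1398 lower. The genes at the threshold were MFSD4B and FAM83A just inside it, with interactions of -0.63 and -1.30 and adjusted p-values of 0.049969, and RNF135 just outside it, with -0.15 and 0.050081.

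Olaparib 5 µM differed from DMSO for 8333 genes at day 1 (45% of genes tested) and for 12627 genes at day 5 (68.2%). A change of at least 2-fold was called for 659 genes at day 1, 581 of them higher in olaparib, and for 3038 genes at day 5, 1629 of them higher. Sustained genes, called at both days in the same direction, were the most numerous class with 2508 up (13.6% of genes tested) and 2904 down (15.7%). Late only genes, called at day 5 and not at day 1 with a called interaction and the larger effect at day 5, were 2202 up (11.9%) and 2097 down (11.3%). Early only genes, the reverse of that, were 476 up (2.57%) and 467 down (2.52%). Reversed genes, called at both days in opposite directions with a called interaction, were 762 that were lower at day 1 and higher at day 5 (4.12%), and 630 that were higher and then lower (3.41%). A further 2110 genes were called at 1 day without meeting these rules (3 up and 3 down of them had a called interaction but the larger effect on the other day), 195 had a called interaction with neither day called, and 4151 had none.

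The classes depend on the scaling: with total-count scaling in place of TMM, 423 of the 943 early only genes (44.9%) stayed in their class, against 3063 of 4299 late only (71.2%), 968 of 1392 reversed (69.5%) and 4745 of 5412 sustained genes (87.7%). Beside the counts for gene lists that follow, the shares of all genes tested are 21.6% higher and 23.4% lower at day 1, 34.4% and 33.9% at day 5, and 27.2% and 27.7% for the interaction.

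**Figure D1:**
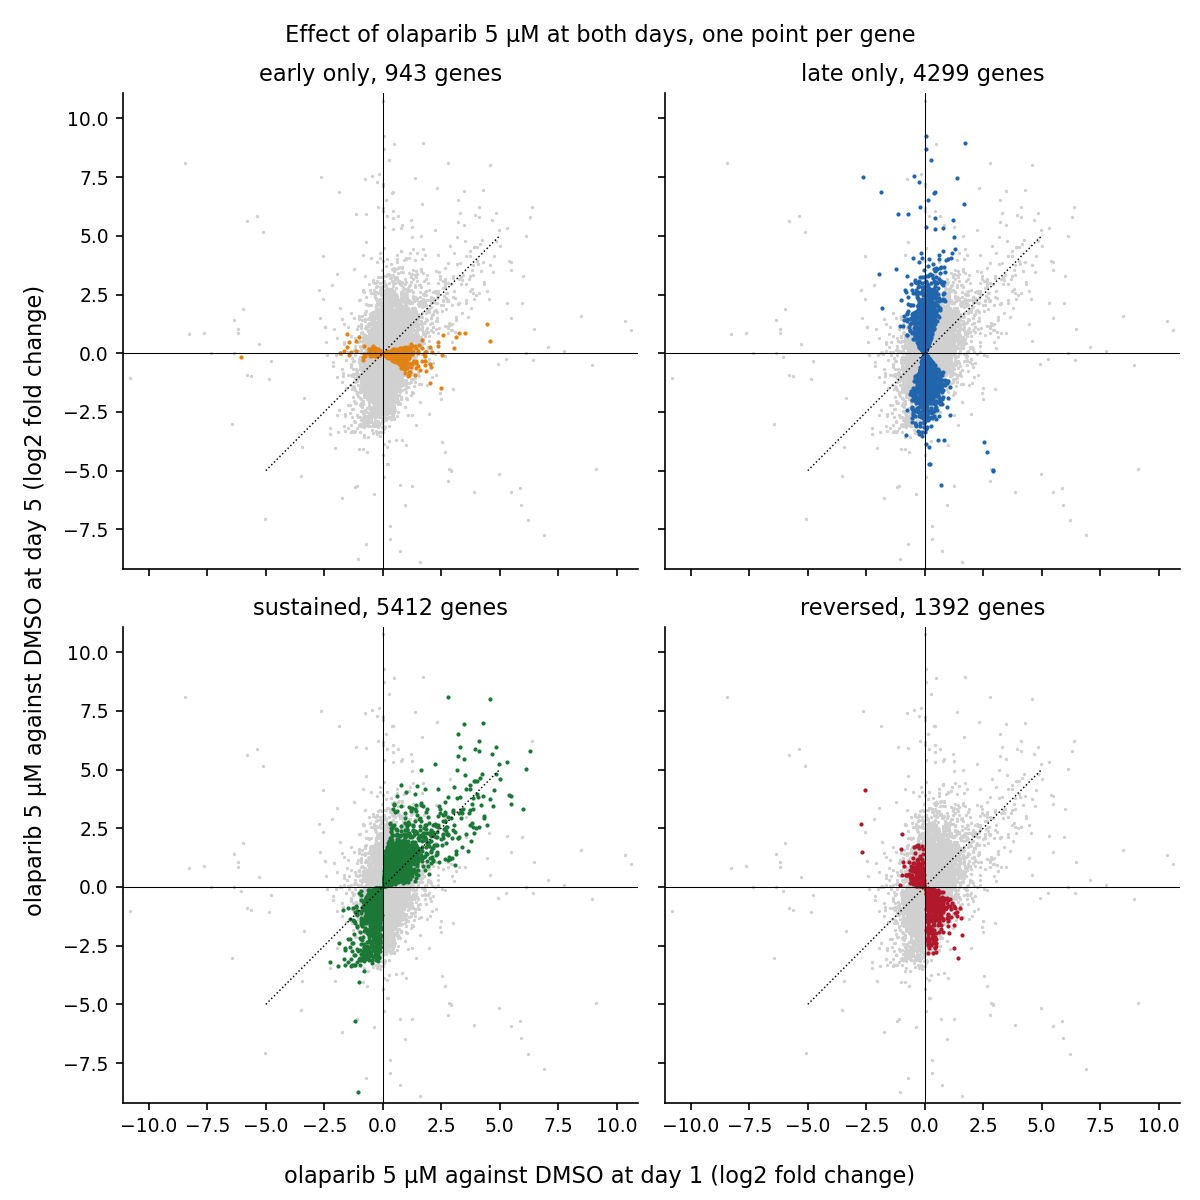
Each point is 1 of the 18502 genes tested, with the log2 fold change of olaparib 5 µM over DMSO at day 1 on the horizontal axis and at day 5 on the vertical axis. Each panel colours the genes of 1 class (943 early only, 4299 late only, 5412 sustained, 1392 reversed) over all others in grey, and the dotted line marks equal effects at both days.

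The classes differed in size of effect as well as in timing, as a description of genes sorted by these same values. Late only genes had a median log2 fold change at day 5 of 0.5 when up and -0.64 when down. Early only genes had a median at day 1 of 0.45 when up and -0.20 when down, and 102 of the 476 up genes but only 12 of the 467 down genes had an interaction of at least 1 in size. Sustained up genes went from a median of 0.34 at day 1 to 0.67 at day 5, and sustained down genes from -0.24 to -0.42. Reversed down genes went from a median of 0.26 to -0.50, and reversed up genes from -0.16 to 0.25. In DMSO the levels also changed between days for 4536 genes (24.5% of genes tested), but by less: the median change in DMSO lay between -0.05 and 0.07 in all 8 class and direction groups, while the median change in olaparib 5 µM ran from -0.74 to 0.5.

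Genes of mitosis fell at both days and fell further by day 5. Of 78 genes in the list, 73 were lower and 1 higher in olaparib at day 1 (median log2 fold change -0.66, with 23.4% of genes tested called lower) and 78 lower at day 5 (median -2.73, with 33.9%), and the interaction was negative and called for 78 of 78 (median -2.04), against 27.7% of genes tested called in that direction. In the classes, 73 were sustained down, 4 late only down and 1 reversed down. In DMSO alone, 67 of the 78 were lower and 0 higher at day 5 than at day 1 (median -0.19). Over all genes tested, 13.4% were lower in that comparison. PLK1, the mitotic kinase polo-like kinase 1 (chr16:23677656-23690367, plus strand), was named among the sustained down genes. Its CPM were 125, 121 and 128 in DMSO and 32.1, 33.1 and 33.5 in olaparib at day 1, and 104, 108 and 102 in DMSO and 10.4, 9.96 and 10.3 in olaparib at day 5. The groups did not overlap, and both olaparib groups lay below both DMSO groups. The log2 fold change was -1.93 at day 1 and -3.35 at day 5, and the interaction was -1.43 ± 0.051 (SE) (adjusted p = 8.5e-24).

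The members of the mitosis list did not move alike at day 1. MYBL2, a transcription factor of the complex that turns on mitotic genes, had CPM of 198, 201 and 199 in DMSO and 198, 186 and 192 in olaparib at day 1, then 171, 173 and 174 in DMSO and 25.5, 24.9 and 25.9 in olaparib at day 5. At day 1 its olaparib and DMSO libraries lay close together (log2 fold change -0.05, adjusted p = 0.091), and at day 5 the olaparib libraries lay far below (log2 fold change -2.77, interaction -2.71 ± 0.039 (SE)). FOXM1, the transcription factor of the G2/M phase, had log2 fold changes of -0.21 and -2.60, PBK, a mitotic kinase, -0.30 and -2.99, and SMC4, a condensin subunit, -0.58 and -2.54. PIF1, a DNA helicase expressed late in the cell cycle, was lowered at both days, with log2 fold changes of -2.24 and -3.20. Its CPM were 11.8, 13.4 and 11.98 in DMSO and 2.77, 2.83 and 2.27 in olaparib at day 1, then 9.37, 9.53 and 9.65 in DMSO and 1.15, 0.758 and 1.18 in olaparib at day 5, with no overlap between olaparib and DMSO at either day. CDC20P1, a pseudogene of the anaphase activator CDC20, was named by the same rule (log2 fold changes -1.65 and -3.08), but it can share reads with CDC20, and its value is uncertain.

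Genes of DNA replication were split at day 1 and fell together at day 5. Of 62 genes in the list, 18 were higher, 18 lower and 26 not called at day 1 (median log2 fold change -0.00, and 0.04 with total-count scaling). At day 5, 62 of 62 were lower (median -1.76), and the interaction was negative and called for 62 of 62 (median -1.86). They were 26 late only down, 18 sustained down and 18 reversed down. In DMSO alone, 42 of the 62 were lower and 2 higher at day 5 than at day 1 (median -0.11), against 13.4% and 11.1% of genes tested. RRM2, the small subunit of ribonucleotide reductase, which makes deoxynucleotides (chr2:10120698-10211725, plus strand), had CPM of 306, 296 and 293 in DMSO and 300.4, 305 and 311 in olaparib at day 1, then 264, 265 and 262 in DMSO and 44.8, 43.5 and 48.1 in olaparib at day 5. The olaparib libraries of day 1 overlapped those of DMSO, and the 3 of day 5 lay far below all others. The log2 fold changes were 0.03 and -2.54, with an interaction of -2.57 ± 0.038 (SE) (adjusted p = 5.7e-35). TK1, thymidine kinase, had log2 fold changes of -0.01 and -2.77, and CDC6, which loads the MCM helicase at origins, 0.01 and -2.32. MCM10, which starts the helicase, was slightly lower already at day 1 (-0.14 and then -3.04).

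The promoters of genes that fell together by day 5 are shown for 2 members of each list, since the lists differ in the letters their promoters hold. Printed are the bases just before the RefSeq start site (GRCh38.p14) that no annotated exon covers, 5′ to 3′ on the gene's strand, for the members with the smallest adjusted p of the interaction whose window held the motif. Capitals mark, in all 4 sequences and on either strand, a CHR (TTTGAA), an E2F site (TTGGCGC or TTCCCGC) and the NF-Y box CCAAT, and run together where motifs overlap. The promoters of CDK1 and NCAPG hold E2F letters as well as a CHR, and that of RRM1 holds CHR letters as well as an E2F site. CDK1, the kinase that drives mitosis, and NCAPG, a condensin subunit, were sustained down with interactions of -1.91 and -2.29, and RRM1, the large subunit of ribonucleotide reductase, and E2F7, a repressor of the E2F family, were reversed down with -1.88 and -2.87.
CDK1, chr10:60778081-60778330, plus strand: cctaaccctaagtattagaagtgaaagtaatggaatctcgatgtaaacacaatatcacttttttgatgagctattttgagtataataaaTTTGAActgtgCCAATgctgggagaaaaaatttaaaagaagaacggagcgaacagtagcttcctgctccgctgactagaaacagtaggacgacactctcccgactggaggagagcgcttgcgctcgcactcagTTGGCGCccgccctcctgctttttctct
NCAPG, chr4:17810759-17810978, plus strand: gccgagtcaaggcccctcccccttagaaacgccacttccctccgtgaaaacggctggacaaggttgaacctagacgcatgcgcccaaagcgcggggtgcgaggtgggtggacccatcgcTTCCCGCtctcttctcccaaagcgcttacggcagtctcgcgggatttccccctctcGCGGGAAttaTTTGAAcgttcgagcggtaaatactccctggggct
RRM1, chr11:4094435-4094684, plus strand: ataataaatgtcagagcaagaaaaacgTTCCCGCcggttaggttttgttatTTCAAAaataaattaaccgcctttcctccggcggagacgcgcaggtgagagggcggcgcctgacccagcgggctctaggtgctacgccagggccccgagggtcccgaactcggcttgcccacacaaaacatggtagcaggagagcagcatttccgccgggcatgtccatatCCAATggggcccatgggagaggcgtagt
E2F7, chr12:77065570-77065819, minus strand: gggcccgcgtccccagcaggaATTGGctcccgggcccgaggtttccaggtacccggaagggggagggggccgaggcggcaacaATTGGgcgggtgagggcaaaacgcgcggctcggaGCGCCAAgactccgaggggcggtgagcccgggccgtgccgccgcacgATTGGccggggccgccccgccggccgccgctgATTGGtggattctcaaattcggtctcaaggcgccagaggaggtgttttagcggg

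In windows from 250 bases before to 50 bases after the start, which RefSeq gave for 12121 of the genes tested (65.5%), the CHR letters were present in 10.1% of promoters, E2F letters in 13.8% and CCAAT in 36.6%. Among mitosis genes 43 of 65 promoters (66.2%) held a CHR and 12 (18.5%) an E2F site. Among replication genes 34 of 53 (64.2%) held an E2F site and 2 (3.77%) a CHR. CCAAT was present in 72.3% of mitosis and 56.6% of replication promoters. The letters were not confined to lists that fell. Promoters of replication-dependent histones, which were higher on balance at day 5, held CCAAT in 81.4% and a CHR in 34.9%. E2F letters were in 50% of homologous recombination and Fanconi promoters, 24% of those of p53 targets and 19% of those of androgen response genes. Over the classes the shares lay closer to that of all promoters. E2F letters were in 21% of reversed down, 19.8% of late only down and 18.6% of sustained down promoters, against 9.87% of sustained up ones, and the CHR was in 13.7% of sustained down promoters. The mitosis and replication lists were written from known cell cycle genes, many of them known for these sites. The shares are thus a description of the promoters and not a test of a factor.

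Homologous recombination repair (HRR) and Fanconi anemia genes were likewise split at day 1 and lower at day 5. Of 43 genes, 13 were higher and 14 lower at day 1 (median log2 fold change 0.00), or 16 and 9 with total-count scaling, 38 were lower and 1 higher at day 5 (median -1.51), and the interaction was negative for 37 and positive for 2 (median -1.35). Both BRCA genes were among the 4 with the smallest adjusted p. BRCA1 (chr17:43044295-43170245, minus strand) had CPM of 106, 103 and 102 in DMSO and 117, 121 and 117 in olaparib at day 1, then 88.5, 86.6 and 88.6 in DMSO and 18.4, 18.4 and 17.8 in olaparib at day 5. Its olaparib libraries were the highest of the 12 at day 1 and the lowest at day 5, with log2 fold changes of 0.19 and -2.27 and an interaction of -2.46 ± 0.048 (SE). BRCA2, a mediator of strand invasion, had log2 fold changes of -0.07 and -2.54. Its fall at day 1 was called with TMM scaling (adjusted p = 0.045) but not with total-count scaling (adjusted p = 0.509). FANCI, a subunit of the ID2 complex that marks crosslinks, went from 0.12 to -2.21, and XRCC2, another recombination factor, from -0.10 to -2.27. The 4 genes of the list with no called interaction, named after their values were seen, were FANCF, ATR, RAD50 and RAD52, with interactions between -0.04 and 0.14.

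**Figure D2:**
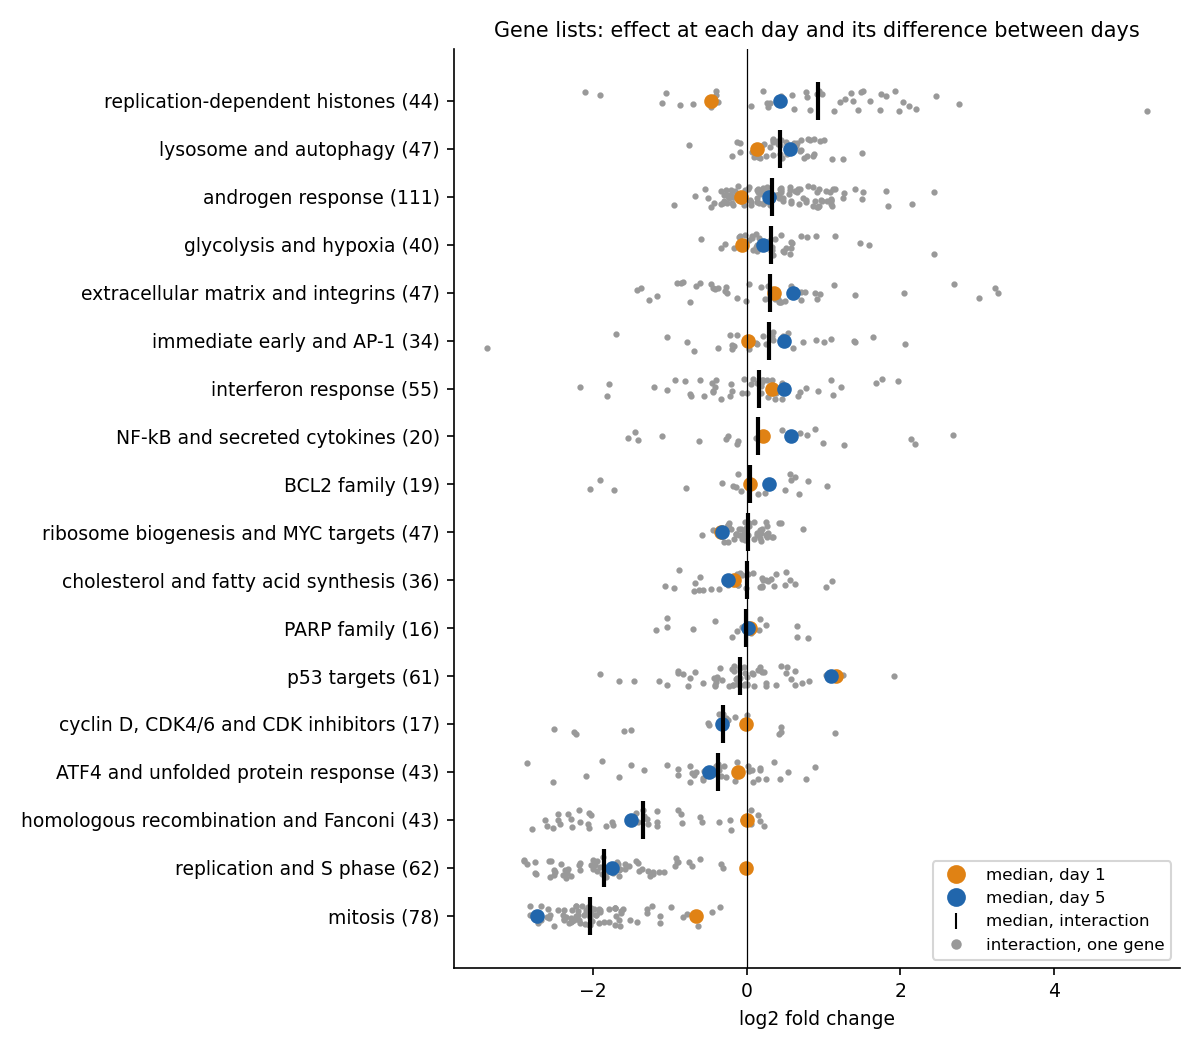
For each of 18 gene lists (number of genes tested in parentheses) the circles mark the median log2 fold change of olaparib 5 µM over DMSO at day 1 and at day 5, the bar the median of the interaction, and grey points the interaction of each gene. Mitosis, replication and HRR genes lie at the negative end (medians -2.04, -1.86 and -1.35) and replication-dependent histones at the positive end (0.93), while p53 targets keep a median above 1 at both days with an interaction near 0.

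The G1/S regulators were mixed. Of 17 genes of D and E cyclins, their kinases and inhibitors, 11 had a negative and 4 a positive called interaction. CCNE2, cyclin E2, went from 0.13 at day 1 to -2.39 at day 5, RBL1, the RB relative p107, from -0.03 to -2.28, CDKN2C, the CDK4/6 inhibitor p18, from -0.35 to -2.57, and CDK2, the kinase of cyclins E and A, from 0.09 to -1.42. MND1, a recombination factor best known from meiosis, was among the reversed genes with the largest interaction above the minimum of 100 counts for a named gene, at 0.45 and -2.56.

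Genes of the p53 response rose at day 1 and stayed up at day 5. Of 61 targets tested, 61 were higher at day 1 (median log2 fold change 1.16), against 21.6% of genes tested, and 57 were higher and 3 lower at day 5 (median 1.10). The interaction was positive for 16, negative for 23 and not called for 22 (median -0.09), and with total-count scaling it was positive for 11 and negative for 33. In the classes, 57 were sustained up and 3 reversed down, and none was early only. CDKN1A (chr6:36676460-36687337, plus strand) had CPM of 55.8, 54.3 and 53.9 in DMSO and 725, 706 and 719 in olaparib at day 1, then 40.4, 41.95 and 40.97 in DMSO and 703, 748 and 741 in olaparib at day 5. Olaparib libraries lay far above DMSO at both days and overlapped between days, while DMSO libraries were lower at day 5. The log2 fold changes were 3.71 and 4.15, with an interaction of 0.44 ± 0.034 (SE), and the change in DMSO alone was -0.41.

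MDM2, the ligase that degrades p53, receded by day 5, with CPM of 197, 185 and 189 in DMSO and 409.8, 419 and 423 in olaparib at day 1, then 195, 196 and 183 in DMSO and 314, 323 and 311 in olaparib at day 5. The groups did not overlap between treatments at either day, and olaparib at day 5 lay below olaparib at day 1. Its log2 fold changes were 1.13 and 0.72 (interaction -0.41 ± 0.036 (SE)). DDB2, which recognises UV lesions, went from 2.10 to 1.27, and AEN, an apoptotic nuclease, from 0.86 to 0.18. ZMAT3, an RNA-binding growth suppressor, went the other way (1.84 to 2.65), as did BTG1, an antiproliferative factor (0.26 to 1.52). The 3 targets that were reversed down, named after their values were seen, were PMAIP1, which encodes the BH3-only protein NOXA (0.62 to -1.29), APAF1, the core of the apoptosome (0.40 to -0.50), and TP53I11 (0.55 to -0.22).

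The sustained up genes with the largest smaller effect were CXCR2, SULF2 and PINCR. SULF2, an enzyme that trims heparan sulfate, had CPM of 0.284, 0.283 and 0.416 in DMSO and 9.19, 9.79 and 9.46 in olaparib at day 1, then 0.22, 0.19 and 0.257 in DMSO and 13.8, 14.6 and 14.1 in olaparib at day 5, with every olaparib library far above every DMSO library. Its log2 fold changes were 4.84 and 5.97, and its interaction of 1.13 ± 0.31 (SE) (adjusted p = 0.0044) was no longer called without replicate 3 of DMSO day 1 (adjusted p = 0.0564). CXCR2, an interleukin-8 receptor, and PINCR, a long noncoding RNA induced by p53, were at 1 to 6 counts per DMSO library, and their interactions were not called. Both passed the filter on low counts through olaparib libraries alone and so had to differ from DMSO, and their values are a description. From summed counts, PINCR was 33.3 times as high in olaparib as in DMSO at day 1 (95% interval 15 to 91.9), and CXCR2 29.9 times at day 5 (12.5 to 93.7), where the exact intervals cover counting error only.

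**Figure D3:**
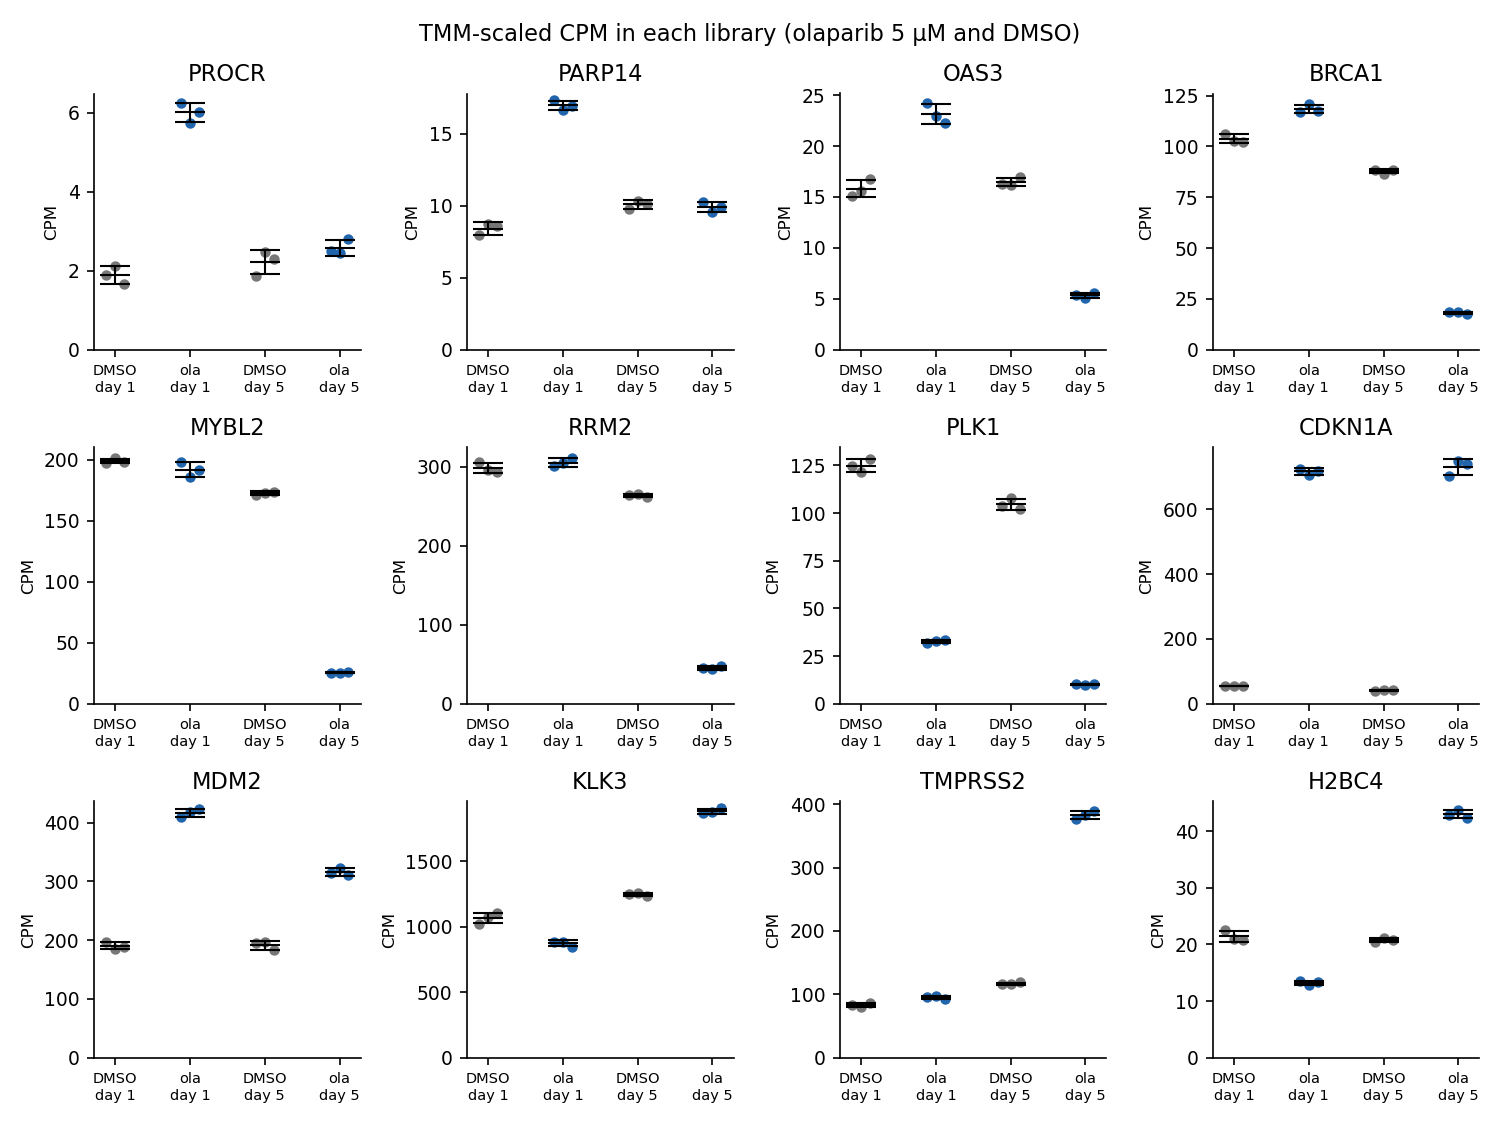
CPM of 12 genes in each of the 12 libraries, with points for libraries and bars for the mean and SD of 3. PROCR and PARP14 are raised in olaparib at day 1 only, OAS3 and BRCA1 are raised at day 1 and lowered at day 5, MYBL2, RRM2 and PLK1 fall to their lowest at day 5, CDKN1A and MDM2 are raised at both days, and KLK3 and H2BC4 are lowered at day 1 and raised at day 5, while TMPRSS2 is raised mostly at day 5.

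Early only genes were the smallest class. PROCR, the endothelial protein C receptor (chr20:35172072-35216240, plus strand), had CPM of 1.90, 2.12 and 1.66 in DMSO and 6.25, 5.75 and 6.01 in olaparib at day 1, then 1.87, 2.46 and 2.29 in DMSO and 2.49, 2.44 and 2.81 in olaparib at day 5. The olaparib libraries of day 1 stood apart from all others, which overlapped, with log2 fold changes of 1.66 and 0.23 and an interaction of -1.43 ± 0.18 (SE) (adjusted p = 1.5e-08). PTPRB, a receptor tyrosine phosphatase, went from 0.87 to -0.31, and MYZAP, a junction protein, from 1.04 to -0.25. The early only down genes with the largest interaction above the minimum of 100 counts for a named gene were H4C14, a histone H4 gene (-0.82 and -0.05), STC1, the secreted hormone stanniocalcin (-0.59 and 0.16), and LINC03009, a noncoding RNA (-0.49 and 0.17). For STC1 the DMSO level itself fell between days by 0.86 on the log2 scale, with CPM of 4.52, 4.53 and 5.38 in DMSO and 2.71, 3.54 and 3.34 in olaparib at day 1, then 2.53, 2.82 and 2.60 in DMSO and 2.72, 3.37 and 2.81 in olaparib at day 5, and the olaparib libraries of both days overlapped.

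The PARP family, the target of the drug, was split. Of 16 genes of the family and its hydrolases, 6 had a positive and 7 a negative called interaction (median -0.01), or 3 and 7 with total-count scaling (median -0.14). PARP1, the main target, was lower at both days, with CPM of 684, 661 and 660.5 in DMSO and 589, 583 and 583 in olaparib at day 1, then 621, 615 and 619 in DMSO and 405, 414 and 404 in olaparib at day 5, and log2 fold changes of -0.19 and -0.60. PARP2 was late only down (-0.06 and -1.10, interaction -1.04 ± 0.054 (SE)). PARP4, the vault PARP, rose from 0.21 to 1.00. PARP14, an interferon-induced member, was early only, with CPM of 7.93, 8.73 and 8.58 in DMSO and 17.3, 16.6 and 16.9 in olaparib at day 1, then 9.79, 10.3 and 10.1 in DMSO and 10.2, 9.57 and 9.87 in olaparib at day 5, with no overlap at day 1 (log2 fold change 1.01) and an overlap at day 5 (-0.02, adjusted p = 0.74).

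Interferon response genes did not move as one. Of 55 tested, 34 were higher and 4 lower at day 1, and 31 higher and 11 lower at day 5, with 20 positive and 14 negative interactions (median 0.16). With total-count scaling 14 interactions were positive and 15 negative (median 0.02), so the balance of the interaction depended on the scaling. Over all genes, 21.6% were higher and 23.4% lower at day 1, 34.4% and 33.9% at day 5, and 27.2% and 27.7% for the interaction, so the share of negative interactions was near the background. OAS3, a sensor enzyme of double-stranded RNA (chr12:112938051-112976460, plus strand), had CPM of 15.1, 15.6 and 16.7 in DMSO and 24.2, 22.9 and 22.2 in olaparib at day 1, then 16.3, 16.2 and 16.96 in DMSO and 5.38, 5.05 and 5.57 in olaparib at day 5. The olaparib libraries were the highest at day 1 and the lowest at day 5 (log2 fold changes 0.55 and -1.63, interaction -2.17 ± 0.08 (SE)). Its relative OAS1, singled out after its values were seen, went from 1.37 to 3.34. B2M, the light chain of MHC class I, rose from 0.18 to 0.96, and LGALS3BP, a secreted glycoprotein, from 0.46 to 1.69.

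Androgen response genes were lower on balance at day 1 and higher at day 5. The list held 110 symbols and 111 tested gene entries, since HERC3 stands under 2 gene IDs, both counted. Of the 111, 23 were higher and 57 lower at day 1 (median log2 fold change -0.07), or 33 and 49 with total-count scaling (median -0.02), and 69 were higher and 37 lower at day 5 (median 0.29). As shares of the list the day 5 counts stand against 34.4% higher and 33.9% lower over all genes, so that the share lower was near the background. The interaction was positive for 72 and negative for 25 (median 0.33), and with total-count scaling for 60 and 33 (median 0.20). In DMSO, 60 of them were higher and 11 lower at day 5 than at day 1 (median 0.12), against 11.1% and 13.4% of genes tested. KLK3 (chr19:50854915-50860764, plus strand) had CPM of 1024, 1074 and 1101 in DMSO and 886, 885 and 846 in olaparib at day 1, then 1248, 1255 and 1232 in DMSO and 1866, 1871 and 1902 in olaparib at day 5. The olaparib libraries were the lowest of the 12 at day 1 and the highest at day 5, and DMSO rose by 0.22 between days. Its log2 fold changes were -0.29 and 0.59, with an interaction of 0.88 ± 0.03 (SE) (adjusted p = 1.0e-17).

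Other androgen response genes showed the late rise without the early fall. TMPRSS2, a surface protease, had CPM of 83.00, 80.3 and 85.8 in DMSO and 95.6, 97.04 and 92.4 in olaparib at day 1, then 116, 116 and 119 in DMSO and 377, 383 and 389 in olaparib at day 5, with log2 fold changes of 0.19 and 1.71 and an interaction of 1.52 ± 0.038 (SE). AZGP1, a secreted zinc-binding glycoprotein, went from 0.11 to 1.52. SORD, sorbitol dehydrogenase, and PMEPA1, an inhibitor of TGF-beta signaling, were reversed up like KLK3 (-0.16 to 0.78, and -0.16 to 0.94).

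Replication-dependent histone genes were lower on balance at day 1 and higher at day 5. Of 44 genes tested, 24 were lower and 1 higher at day 1 (median log2 fold change -0.47), 22 were higher and 14 lower at day 5 (median 0.43), and the interaction was positive for 26 and negative for 6 (median 0.93), or for 25 and 8 with total-count scaling. Over all genes, 34.4% were higher and 33.9% lower at day 5, and 27.2% and 27.7% for the interaction, so the share of histone genes lower at day 5 was near the background. In the classes, 13 were reversed up, 10 sustained down and 7 late only up. H2BC4, a histone H2B gene of the main cluster (chr6:26086317-26123926, minus strand), had CPM of 22.5, 20.9 and 20.8 in DMSO and 13.6, 12.9 and 13.3 in olaparib at day 1, then 20.5, 21.2 and 20.7 in DMSO and 42.8, 43.7 and 42.3 in olaparib at day 5, lowest in olaparib at day 1 and highest at day 5. H2BC21, an H2B gene, went from -0.26 to 1.67, H4C8, an H4 gene, from -0.49 to 1.01, H4C16, another, from -0.35 to 1.75, and H2AC6, an H2A gene, from -1.04 to 0.10. The rise of H2AC6 at day 5 was not called with total-count scaling (adjusted p = 0.556). The kit captured mRNA, and these transcripts mostly end without a poly(A) tail, so the values count captured transcripts, and their captured share was not measured. Histone genes are near-identical copies, so counts of single members are uncertain.

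**Figure D4:**
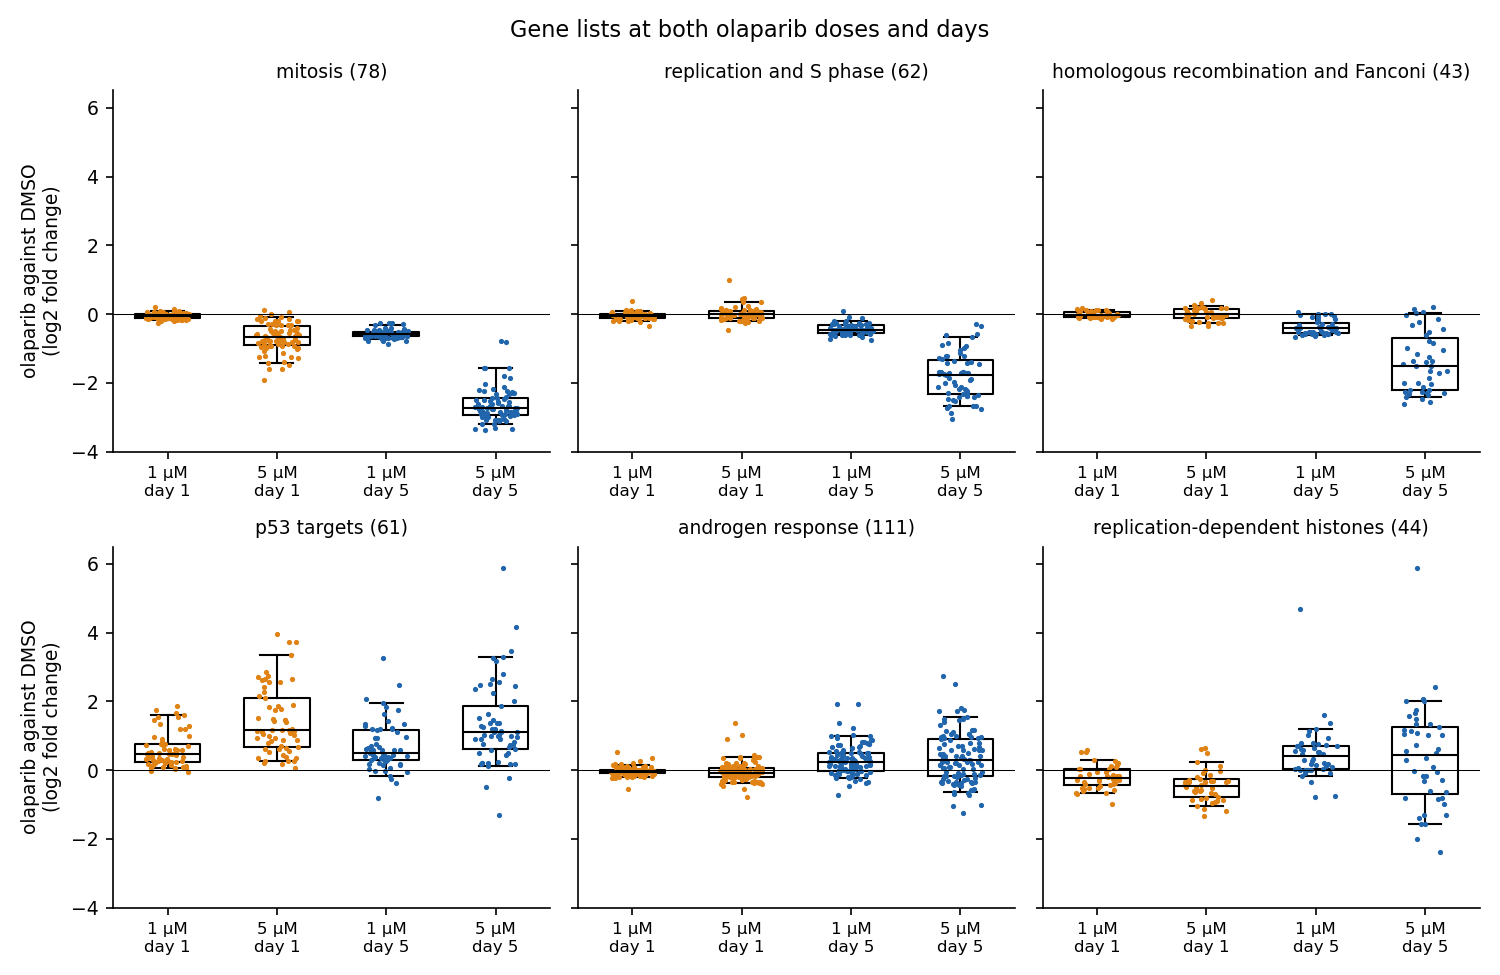
Log2 fold change of olaparib over DMSO of the same day for the genes of 6 lists (points), at 1 and 5 µM and days 1 and 5, with boxes for the quartiles and median and whiskers for the 5th and 95th percentiles. Mitosis medians are -0.06, -0.66, -0.59 and -2.73 from left to right, and p53 target medians 0.47, 1.16, 0.51 and 1.10.

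Lysosome and autophagy genes rose by day 5. Of 47, 26 were higher and 4 lower at day 1, 42 higher and 3 lower at day 5 (median log2 fold change 0.57), and the interaction was positive for 36 and negative for 2, against 21.6%, 34.4% and 27.2% of all genes higher in these comparisons. NPC1, the lysosomal cholesterol exporter, went from -0.08 to 1.41, PSAP, the precursor of the saposins, from 0.22 to 1.33, and SQSTM1, the autophagy receptor p62, from -0.05 to 0.66. Beside this, 2 of the 8 immune cell markers passed the filter, CD68, a lysosomal membrane protein, and LYZ, lysozyme, and both were higher at day 5 and neither was called at day 1. The summed level of that list was 5.15 to 6.94 CPM in the other groups and 28.7 to 31.1 in olaparib 5 µM at day 5, while CD3E, MS4A1 and NKG7 had 0 counts in all 12 libraries. Of 40 glycolysis and hypoxia genes, 8 were higher and 21 lower at day 1 (median -0.06), 23 higher and 10 lower at day 5 (median 0.22), and the interaction was positive for 29 and negative for 2, or for 22 and 6 with total-count scaling. In the classes, 9 were sustained down, 8 sustained up, 8 reversed up and 7 late only up. NDRG1, a stress-induced and androgen-regulated gene, had CPM of 94.03, 91.2 and 99.2 in DMSO and 118, 118 and 113 in olaparib at day 1, then 111, 104 and 106 in DMSO and 682, 728 and 737 in olaparib at day 5, which gave log2 fold changes of 0.30 and 2.74. ALDOC, aldolase C, VEGFA, the angiogenic factor, and KDM3A, a histone demethylase, rose by 1.67, 0.99 and 1.22 at day 5, against 0.07, 0.09 and 0.07 at day 1.

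Genes of the ATF4 and unfolded protein responses were lower on balance at both days, and more so at day 5. Of 43 in the list, 25 were lower and 9 higher at day 1 (median log2 fold change -0.12), 30 lower and 12 higher at day 5 (median -0.49), and the interaction was negative for 30 and positive for 10. In the classes, 19 were sustained down, 6 late only down and 5 reversed down. ASNS, asparagine synthetase (chr7:97851677-97872542, minus strand), had CPM of 278, 267 and 278 in DMSO and 307, 307 and 305 in olaparib at day 1, then 313, 322 and 315 in DMSO and 80.05, 85.5 and 83.3 in olaparib at day 5. Olaparib lay slightly above DMSO at day 1 and far below it at day 5, with no overlap at either day, and gave log2 fold changes of 0.16 and -1.93 (interaction -2.09 ± 0.033 (SE)). The serine synthesis enzymes PHGDH and PSAT1 went from 0.00 to -1.34 and from -0.31 to -1.81, and PCK2, mitochondrial PEP carboxykinase, from 0.21 to -1.45. Genes of ribosome biogenesis and MYC targets were already lower at day 1 (47 of 47, median -0.33) and mostly stayed so (39 of 47 lower and 3 higher at day 5, median -0.33). Their interaction was positive for 19 and negative for 14, or for 12 and 26 with total-count scaling. FBL, a nucleolar methyltransferase, ODC1, the first enzyme of polyamine synthesis, and UTP20, a ribosome assembly factor, were sustained down, with -0.62, -0.75 and -1.04 at day 5, and all 3 had a negative interaction.

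Adhesion, secreted and signaling genes included late rises. THBS1, the matrix protein thrombospondin 1 (chr15:39581079-39599466, plus strand), had CPM of 19.7, 18.99 and 18.3 in DMSO and 20.1, 17.7 and 17.7 in olaparib at day 1, then 15.1, 15.3 and 15.6 in DMSO and 141, 149 and 143 in olaparib at day 5, with an overlap of the groups at day 1 and a wide gap at day 5 (log2 fold changes -0.03 and 3.24, interaction 3.27 ± 0.064 (SE)). LAMC1 and LAMA3, laminin chains, rose from 0.17 to 1.30 and from 0.09 to 0.97, while ITGA6, a laminin receptor, went from 0.08 to -0.77. Of the 47 matrix and integrin genes, 28 were higher and 4 lower already at day 1 (21.6% and 23.4% of genes tested), 30 higher and 6 lower at day 5, and 18 were sustained up against 8 late only up. Their interaction was positive for 21 and negative for 12, or for 20 and 17 with total-count scaling. Among NF-kB and secreted factor genes (9 positive and 7 negative of 20, or 9 and 8 with total-count scaling), IGFBP3, which binds insulin-like growth factors, went from 0.39 to 2.52, NFKB2, a subunit of NF-kB, from 0.14 to 1.13, ICAM1, an adhesion molecule, from 0.04 to 0.82, and NFKBIA, the inhibitor of NF-kB, from -0.12 to 0.58. Among immediate early genes (13 positive and 9 negative of 34, or 11 and 9 with total-count scaling), FOSL2 and JUN, subunits of AP-1, rose from 0.63 to 2.27 and from 0.23 to 1.64. DUSP2, a phosphatase of MAP kinases, and MYC were reversed up (-0.27 to 1.79, and -0.13 to 0.60).

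In the BCL2 family, 9 of 19 genes had a positive and 5 a negative interaction (median 0.04), or 8 and 8 with total-count scaling (median -0.09). BCL2L1, which encodes the survival factor BCL-XL, went from 0.16 to 0.79, BNIP3L and BNIP3, receptors of mitophagy, from 0.33 to 0.91 and from 0.00 to 0.56, and BOK, a BAX relative, from 0.04 to 0.83. BCL2 itself, singled out after its values were seen, went from -0.24 to -2.28. Cholesterol and fatty acid synthesis genes were lower on balance at both days. Of 36, 26 were lower and 4 higher at day 1 (median log2 fold change -0.16, with 23.4% of genes tested lower), and 22 lower and 11 higher at day 5 (median -0.25, with 33.9%). Their interaction was positive for 17 and negative for 15 (median -0.00), or for 13 and 20 with total-count scaling (median -0.13). In DMSO alone 27 rose between days, against 11.1% of genes tested. ELOVL5, a fatty acid elongase, went from -0.06 to 1.05, TM7SF2, a sterol reductase, from 0.58 to 1.61, FADS1, a desaturase, from -0.06 to -1.02, and FDPS, farnesyl diphosphate synthase, from -0.03 to -0.92.

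The late only down genes with the largest interaction, above the same minimum for a named gene (100 counts on average in the highest group), were at near equal levels in olaparib and DMSO at day 1 and fell by day 5. NIBAN1, a stress-regulated signaling protein (chr1:184790724-184974508, minus strand), had CPM of 27.4, 28.2 and 30.7 in DMSO and 29.6, 30.8 and 28.9 in olaparib at day 1, then 32.1, 30.4 and 32.7 in DMSO and 3.33, 3.34 and 3.43 in olaparib at day 5, with an interaction of -3.28 ± 0.084 (SE) (adjusted p = 2.3e-28). The 9 libraries other than olaparib at day 5 overlapped, and those 3 were far below. CA8, a protein related to carbonic anhydrases, and DMBX1, a homeobox factor, had interactions of -3.91 and -3.25. The reversed down genes RGS9, which shuts off G protein signals, and JDP2-AS1, an antisense RNA, had -3.16 and -3.01. The libraries were stranded, but the strand setting of the counting is not given in the sources used here.

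Among late only up genes that have a symbol and averaged 100 counts or more in their highest group, the minimum for a named gene, PRAMEF12, TRIM43 and TRIM49B had the largest interactions, while genes below that minimum, such as MBD3L2 and PRAMEF1, had larger fitted ones. PRAMEF12, TRIM43 and TRIM49B passed the filter on low counts through olaparib 5 µM at day 5 alone and so had to differ, and their values are a description. They are genes known as targets of DUX4, a factor of the cleavage-stage embryo, and are nearly silent in most adult tissues. PRAMEF12 had 2, 8 and 6 counts in DMSO and 5, 5 and 7 in olaparib at day 1, then 1, 3 and 2 in DMSO and 179, 163 and 176 in olaparib at day 5. TRIM43 had 0, 3 and 8 counts in DMSO and 5, 0 and 9 in olaparib at day 1, then 2, 1 and 1 in DMSO and 160, 147 and 135 in olaparib at day 5. For both, the 3 olaparib libraries of day 5 lay above 100 counts and the other 9 below 10. From summed counts, TRIM43 was 125 times as high in olaparib as in DMSO at day 5 (95% interval 48.6 to 462) and PRAMEF12 97.9 times (44.7 to 268), by exact intervals that cover counting error only. TRIM49B was 211 times as high at day 5 (58.1 to 1750) over only 2 counts in DMSO, and its interaction was not called without replicate 3 of DMSO day 1 (adjusted p = 0.871). These genes have near-identical copies, so each one's count is uncertain. DUX4 itself did not pass the filter and was not tested, with 0, 0 and 0 counts in DMSO and 8, 0 and 0 in olaparib at day 1, then 0, 0 and 2 in DMSO and 2, 0 and 7 in olaparib at day 5.

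A list of 28 DUX4-induced and cleavage-stage genes was drawn up after these values were seen, and it serves as a description only. The filter on low counts was passed by 17, some of them, such as PRAMEF2, through the libraries of olaparib 5 µM at day 5 alone, so no count of called members is given. Summed counts of the list were 59, 104 and 97 in DMSO and 133, 137 and 147 in olaparib 5 µM at day 1. They were 63, 71 and 86 in DMSO and 1531, 1482 and 1304 in olaparib 5 µM at day 5. At 1 µM they were 96 to 118 at day 1 and 145 to 187 at day 5. In the separate panel they were 66 to 84 in DMSO, 119 to 150 in olaparib 1 µM and 118 to 170 in talazoparib. The 3 libraries of olaparib 5 µM at day 5 thus stood apart, and no other library of the time course exceeded 187.

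At 1 µM, olaparib differed from the same DMSO libraries for 2928 genes at day 1 (15.8% of genes tested) and 8566 at day 5 (46.3%), and its own interaction was called for 5510 (29.8%). Since both doses share their DMSO libraries, values are set side by side. Mitosis genes had a median log2 fold change of -0.06 at 1 µM and -0.66 at 5 µM at day 1, and -0.59 and -2.73 at day 5. At 1 µM 25 of the 78 were lower at day 1 (9.52% of genes tested) and 78 at day 5 (22.9%), while 46 of 61 p53 targets were higher at day 1 (6.3%) and 50 at day 5 (23.4%). Replication genes had -0.06 and -0.00 at day 1, and -0.45 and -1.76 at day 5. p53 targets had 0.47 and 1.16 at day 1, and 0.51 and 1.10 at day 5. Androgen response genes had -0.05 and -0.07 at day 1, and 0.23 and 0.29 at day 5. A test of the dose, 5 µM against 1 µM at day 5 minus the same at day 1, which uses no DMSO library, called 6860 genes (37.1%), 3274 higher and 3586 lower. In it 77 of 78 mitosis genes and 62 of 62 replication genes were lower, against 19.4% of genes tested, with medians of -1.49 and -1.41. BRCA1 had -1.91 ± 0.048 (SE), KLK3 0.48 ± 0.03 (SE) and CDKN1A -0.16 ± 0.031 (SE) in this test.

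The panel gives libraries that the sorting by day did not use, though at 1 µM and 5 days only. There olaparib differed from DMSO for 6638 of 18625 genes (35.6%), 3655 higher (19.6%) and 2983 lower (16%). Of late only up genes tested in the panel, 1069 of 2168 (49.3%) were higher and 28 lower, and of late only down genes 799 of 2067 (38.7%) were lower and 29 higher. Of sustained up genes 1507 of 2480 (60.8%) were higher, and of sustained down genes 1501 of 2902 (51.7%) were lower. Of reversed genes, 431 of 760 reversed up genes were higher (56.7%) and 12 lower, and 237 of 629 reversed down genes were lower (37.7%) and 16 higher. Early only up genes were below the background in both directions, with 42 of 466 higher (9.01%) and 44 lower (9.44%). Of early only down genes, 105 of 466 (22.5%) were higher and 36 (7.73%) lower. KLK3 was higher by 0.18 (adjusted p = 0.0044), BRCA1 lower (-0.34, adjusted p = 8.5e-06), and PROCR was not called (0.34, adjusted p = 0.096). In the time course itself, PROCR was called higher at day 5 with olaparib 1 µM (log2 fold change 0.39, adjusted p = 0.0108).

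**Figure D5:**
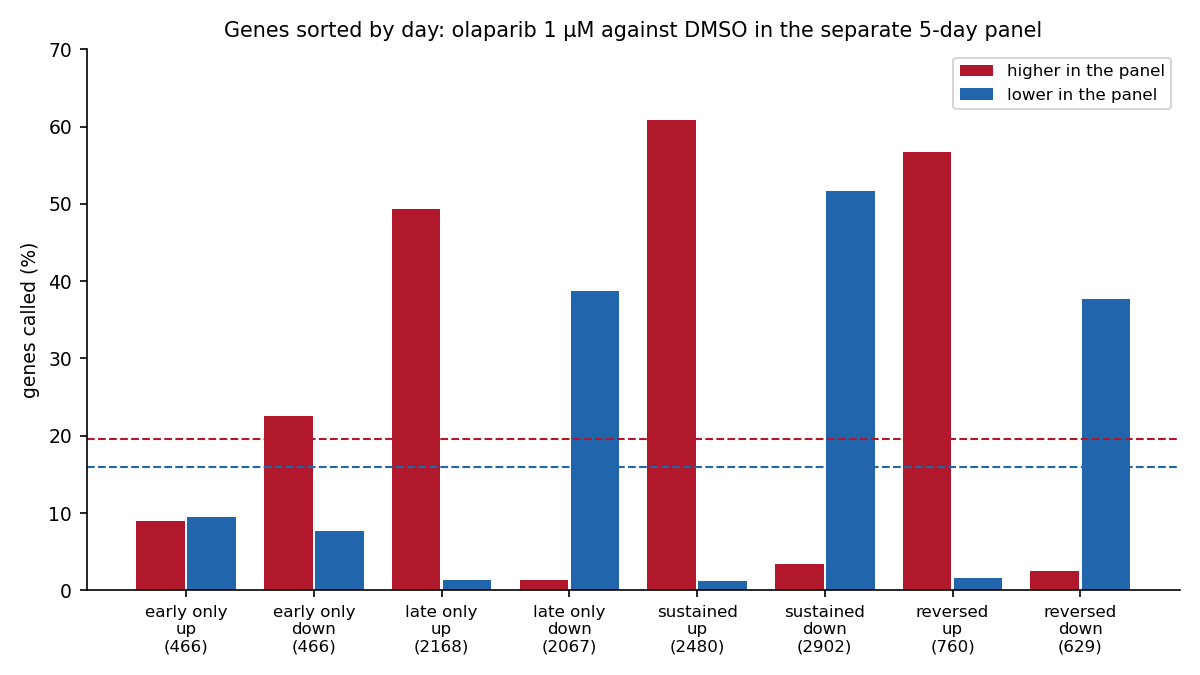
Share of the genes of each class and direction (number tested in the panel in parentheses) that were called higher or lower by olaparib 1 µM over DMSO in the separate 5-day panel, with dashed lines for the shares over all 18625 genes (19.6% higher and 16% lower). Late only, sustained and reversed genes lie above the line in their day 5 direction, from 37.7% to 60.8%, and early only up genes lie below both lines.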

How the data were processed

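RNA from C4-2B cells was measured in 39 libraries of 2 experiments. Libraries were stranded and made after mRNA capture. Per the study's methods, paired reads were trimmed (Trim Galore), mapped to GRCh38 (STAR) and quantified over GENCODE genes (Salmon). The values the authors deposited are estimated counts, given as whole numbers for 63187 genes and not normalized. The rounding is not described. Symbols and gene positions came from an earlier GENCODE release (62666 IDs matched), and promoters from RefSeq.

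The 18 libraries of the time course, grouped by treatment and day from their labels, entered one edgeR 4.0.16 fit in R 4.3.3 (filterByExpr by group, TMM scaling, robust dispersions, quasi-likelihood test, no covariates). P-values were adjusted by Benjamini-Hochberg over 18502 genes, and a gene was called at an adjusted p under 0.05. The 21 panel libraries were fitted apart (18625 genes). Total counts per library set the precision of low genes, and intervals for these cover counting error only. The members, classes and lists were chosen with earlier results of these data known. Genes named are, for each class and direction, the 3 with the largest interaction (for sustained genes, with the largest of the smaller day effect) that have a symbol, lie outside a few listed copy families and have at least 100 counts on average in the highest group, up to 4 per list with the smallest adjusted p of the interaction, and CDKN1A, MDM2, KLK3, TMPRSS2, PARP1 and PARP2. Some genes that this rule names are not reported here. Others are said to be singled out. Scripts were tested on simulated data. Alternatives were RLE and total-count scaling, no filter, DESeq2 1.42.0 (Wald test, local fit), only the 12 libraries, a 2-fold threshold, a replicate block and leaving out each library.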

Additional observations from a re-analysis of the deposited data

Results flagged for a closer look

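These results are listed because the effect of 1 condition was tested for a difference between 2 others. The effect of olaparib 5 µM over DMSO differed between days for 10156 genes, and the step from 1 to 5 µM olaparib differed between days for 6860 genes, both by edgeR's quasi-likelihood test at an adjusted p under 0.05. Of the genes picked by the naming rule and reported, those other than CXCR2 and PINCR had such a difference for olaparib 5 µM. The interaction (day 5 minus day 1, log2 scale) of each of these is given here by list or class. The values of PRAMEF12, TRIM43 and TRIM49B are a description only, since these genes passed the filter on low counts through olaparib 5 µM at day 5 alone. Interactions for early only down genes were STC1 0.75, H4C14 0.77 and LINC03009 0.66. Among early only up genes they were PROCR -1.43, PTPRB -1.19 and MYZAP -1.29. Under genes named whatever their values stood CDKN1A 0.44, MDM2 -0.41 and KLK3 0.88. Interactions for late only down genes were NIBAN1 -3.28, CA8 -3.91 and DMBX1 -3.25. Among late only up genes they were PRAMEF12 6.37, TRIM43 6.44 and TRIM49B 6.10. Under androgen response stood PMEPA1 1.09, SORD 0.94, AZGP1 1.41 and TMPRSS2 1.52. Interactions for ATF4 and unfolded protein response were ASNS -2.09, PHGDH -1.34, PCK2 -1.66 and PSAT1 -1.502. Among BCL2 family they were BNIP3L 0.58, BCL2L1 0.63, BNIP3 0.56 and BOK 0.80. Under cholesterol and fatty acid synthesis stood ELOVL5 1.11, FADS1 -0.95, TM7SF2 1.03 and FDPS -0.89. Interactions for cyclin D, CDK4/6 and CDK inhibitors were RBL1 -2.25, CDKN2C -2.22, CDK2 -1.51 and CCNE2 -2.52. Among extracellular matrix and integrins they were LAMA3 0.89, ITGA6 -0.85, LAMC1 1.13 and THBS1 3.27. Under glycolysis and hypoxia stood NDRG1 2.44, ALDOC 1.59, VEGFA 0.90 and KDM3A 1.15. Interactions for homologous recombination and Fanconi were BRCA1 -2.46, BRCA2 -2.46, FANCI -2.33 and XRCC2 -2.17. Among immediate early and AP-1 they were FOSL2 1.64, JUN 1.41, MYC 0.73 and DUSP2 2.06. Under interferon response stood LGALS3BP 1.23, OAS3 -2.17 and B2M 0.78. Interactions for lysosome and autophagy were NPC1 1.495, SQSTM1 0.70 and PSAP 1.10. Among mitosis they were MYBL2 -2.71, FOXM1 -2.38, SMC4 -1.96 and PBK -2.69. Under NF-kB and secreted cytokines stood NFKB2 0.99, ICAM1 0.78, NFKBIA 0.70 and IGFBP3 2.13. Interactions for p53 targets were BTG1 1.26, DDB2 -0.83, ZMAT3 0.81 and AEN -0.67. Among PARP family they were PARP4 0.79, PARP2 -1.04, PARP1 -0.41 and PARP14 -1.03. Under replication and S phase stood MCM10 -2.90, CDC6 -2.33, TK1 -2.76 and RRM2 -2.57. Interactions for replication-dependent histones were H4C8 1.51, H2AC6 1.14, H2BC4 1.74 and H2BC21 1.93. Among ribosome biogenesis and MYC targets they were FBL -0.44, ODC1 -0.29 and UTP20 -0.58. Under reversed down genes stood RGS9 -3.16, MND1 -3.01 and JDP2-AS1 -3.01. Interactions for reversed up genes were H4C16 2.11. Among sustained down genes they were PIF1 -0.96, PLK1 -1.43 and CDC20P1 -1.43. Under sustained up genes stood SULF2 1.13.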

How the results depend on the processing

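Counts of called genes, though not the members of the classes, stayed within 1.5 times under RLE and total-count scaling, no filter on low counts, DESeq2, a fit of only the 12 libraries and the replicate block. With total-count scaling 44.9% of early only, 71.2% of late only, 69.5% of reversed and 87.7% of sustained genes stayed in their class. With RLE scaling the interaction was called for 10115 genes, with total-count scaling for 10376, without a filter for 9986, with DESeq2 for 9372 and with only the 12 libraries for 10006. A change of at least 1 on the log2 scale was met by 2243 genes for the interaction, 659 at day 1, 3038 at day 5, 147 in DMSO between days, 2619 in olaparib 5 µM between days and 917 for dose by day. An interaction of that size was met by 114 early only, 1241 late only and 305 reversed genes. Of sustained genes, 382 had an effect of that size at both days. Total-count scaling also moved the share of called genes that were higher to 60.3% at day 1, 42.3% at day 5, 57.7% in DMSO between days, 37.9% in olaparib 5 µM between days and 28.5% for dose by day.

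Leaving out 1 library at a time gave 9739 to 9895 genes for the interaction, 7592 to 7852 at day 1, 12113 to 12205 at day 5, 3689 to 3848 in DMSO between days, 11780 to 11894 in olaparib 5 µM between days, 6380 to 6590 for dose by day and 5647 to 6330 in the panel. Early only genes then numbered 836 to 969, late only 4085 to 4547, sustained 5013 to 5316 and reversed 1216 to 1366.

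Replicate numbers did not pair the libraries: none of 18 correlations of same-numbered deviations was over 0.1 (-0.133 to 0.0825), and 3 of 12 libraries correlated best with their own number. The fit with the replicate block called 10083 genes for the interaction, 8254 at day 1, 12592 at day 5, 4455 in DMSO between days, 12236 in olaparib 5 µM between days, 6801 for dose by day and 6534 in the panel, with 933 early only, 4289 late only, 5376 sustained and 1375 reversed genes.

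Of 94 named genes, 90 kept the direction and call of their interaction under all 18 settings. That of CXCR2, which was not called, ran from -0.42 to 0.21 over the fits that left out 1 library, and turned to 0.0177 with DESeq2, 0.21 without DMSO day 1 replicate 2, 0.03 without olaparib 5 µM day 1 replicate 2, 0.11 without DMSO day 5 replicate 3 and 0.09 without olaparib 5 µM day 5 replicate 2. That of PINCR, also not called, ran from -0.0186 (without DMSO day 5 replicate 1) to 0.56. Without DMSO day 1 replicate 3, the interactions of TRIM49B (2.95, adjusted p = 0.871) and SULF2 (0.92, adjusted p = 0.0564) were no longer called by edgeR. Low counts in DMSO limit these 4 genes, and the cause was not tested.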
